A study of Mus musculus with 6 samples.

Results

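The matrix metalloproteinases (Mmp), the ADAMTS proteinases and the tissue inhibitors of metalloproteinases (Timp) were followed in bone marrow stromal cells (BMSCs) from wild-type mice (WT) and from miR-188 knockout mice (KO188), in which this microRNA gene was removed. Members were all genes whose symbol marks them as an Mmp, an Adamts or Timp1 to Timp4 in the array annotation, read on probe sets that name 1 gene. The rule found 44 of the 19938 genes tested: 22 Mmp, 18 Adamts and 4 Timp genes. Mmp15 and Adamts2 were not analysed here.

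BMSCs are the adherent cells of the marrow, which can form osteoblasts or adipocytes. Both groups came from mice of C57BL/6 background at 6 months of age, and the only labelled difference is the genotype, wild type or knockout of miR-188. All cells were kept in alpha-MEM with 10% fetal calf serum, 100 nM dexamethasone, 10 mM beta-glycerophosphate and 0.05 mM ascorbic acid-2-phosphate, a medium that drives bone matrix formation. Each group had 3 samples, each read on 1 Affymetrix array, and the series title places the study in the switch between osteoblast and adipocyte fates. The labels do not say which part of the Mir188 locus was removed, whether other cells of the mouse carry the deletion in the same way, or whether each sample came from its own mouse or culture.

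MMPs are zinc enzymes made as inactive precursors, and between them they cut most proteins of the extracellular matrix. ADAMTS enzymes are secreted relatives that trim procollagens, cartilage proteoglycans and proteins of the elastic microfibrils. TIMPs bind the active site of these enzymes and block it. In bone, osteoblast lineage cells supply collagenase for the turnover of the collagen matrix, and the balance of enzyme and inhibitor governs how much matrix is lost.

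Values are the authors' log2 levels per probe set. Over the 6 arrays the medians ran from 7.43 to 7.50. Across tested genes, r was 0.999 between arrays within a group and 0.991 between the groups; genes are not independent replicates. Each change is KO188 minus WT from a limma fit over all tested genes. A gene was called when its p, adjusted by the Benjamini-Hochberg method over the whole table, was under 0.05. The sample titles number the samples of each group as biological replicates, but separate mice or cultures are not stated. The p-values measure the spread between these samples only, which may be technical. A batch or culture difference shared by the 3 KO188 samples and the genotype cannot be told apart. Levels come from different probes and are not compared between genes. As a rough guide to silent genes, called the receptor guide, 1194 olfactory and vomeronasal receptors were read, of which 95% lay under 6.72. Among stromal markers 8 of 9 lay above this guide (Lepr at or below it), and so did Alpl, Dlx5, Col1a1 and Col1a2 of the osteoblast markers. Sp7, Phex, Ibsp and Dmp1, the other 4 osteoblast markers measured, lay at or below the guide over the 6 arrays.

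Mmp13, which encodes collagenase-3, an enzyme of osteoblasts and hypertrophic chondrocytes that cuts fibrillar collagen, showed the largest change of the 44 genes and was 4.0-fold higher in KO188. It is also the first gene of a cluster of 10 Mmp genes on chromosome 9. The sequence before its start is printed so that its motifs can be compared with those of its neighbours. The 250 bases before the start of Mmp13 (RefSeq, GRCm38.p6, chr9:7272264-7272513, plus strand) are shown with 2 motifs in capitals, AACCACA, a form bound by Runx factors, and TGACTCA, a form bound by AP-1 dimers.
Mmp13: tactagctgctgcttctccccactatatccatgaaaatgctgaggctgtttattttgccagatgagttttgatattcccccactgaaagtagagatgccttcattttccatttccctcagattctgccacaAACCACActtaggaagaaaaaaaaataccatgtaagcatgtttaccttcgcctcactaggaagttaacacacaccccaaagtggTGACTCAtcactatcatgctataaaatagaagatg

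The AP-1 motif was searched loosely as TGANTCA, with N any base, a pattern that reads the same on both strands. The Runx motif was searched as AACCACA on both strands, and the 2 motifs share no position. In the Mmp13 promoter the AP-1 match began 35 bases and the Runx match 119 bases before the start. TGANTCA occurred before a start of 8 of the 10 genes of the cluster, in Mmp12 only at the second of its 2 annotated starts. The Mmp20 match was TGAATCA, whereas the others were TGACTCA or TGAGTCA. These stretches of 41 bases are shown so that the match can be compared between genes, with the match in capitals.
Mmp13 (chr9:7272462-7272502, plus strand): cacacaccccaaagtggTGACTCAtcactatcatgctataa
Mmp12 (chr9:7347313-7347353, plus strand): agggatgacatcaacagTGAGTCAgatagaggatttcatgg
Mmp1b (chr9:7388096-7388136, minus strand): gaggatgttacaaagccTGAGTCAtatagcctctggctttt
Mmp3 (chr9:7445759-7445799, plus strand): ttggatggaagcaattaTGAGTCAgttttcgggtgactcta
Mmp1a (chr9:7464051-7464091, plus strand): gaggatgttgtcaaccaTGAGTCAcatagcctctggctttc
Mmp10 (chr9:7502262-7502302, plus strand): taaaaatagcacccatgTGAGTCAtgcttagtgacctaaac
Mmp20 (chr9:7628119-7628159, plus strand): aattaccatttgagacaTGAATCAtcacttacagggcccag
Mmp7 (chr9:7692010-7692050, plus strand): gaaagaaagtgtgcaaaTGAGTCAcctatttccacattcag

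The promoter sequences used here covered 30 of the 44 members, although all 44 are RefSeq genes. The 8 genes above were the only ones of these 30 with the AP-1 letters in the 250 bases before a start. Some genes have more than 1 annotated start. Counted per promoter, 8 of 33 member promoters held the AP-1 letters, beside 6.75% of all 32851 promoters of this length. The Runx letters occurred in 3 of the 30 genes, Mmp13, Mmp27 and Mmp7, the latter pair on the other strand. Counted per promoter, 3 of 33 member promoters held the Runx letters, beside 4.4% of all promoters. In Mmp7 the 2 motifs belong to different annotated starts, so that Mmp13 was the only member with both before the same start. Among members higher in KO188 whose promoter was held, 1 of 8 had the AP-1 letters and 1 of 8 the Runx letters, Mmp13 in each case. Among members not called, 7 of 19 had the AP-1 letters. The Mmp13 promoter held 40.4% G and C, whereas those of the other 7 higher members with an entry held 55.2% to 71.2%. A match is a description of the letters and not of a bound site.

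Along the cluster, Mmp13 alone was called on the deposited values. Its level was 6.92, 6.36 and 6.68 on the 3 WT arrays and 8.77, 8.52 and 8.66 on the 3 KO188 arrays (probe set 10583044). Every KO188 array lay far above every WT array, and the WT arrays straddled the receptor guide. The change was 2.0 on the log2 scale (SE 0.140, limma adjusted p = 0.00011), from 6.65 ± 0.28 (SD, n = 3) to 8.65 ± 0.13 (n = 3). Because the WT level lay near the dim end, where these values are compressed, the size of the fold is inexact. By size of rise Mmp13 was the 88th of all tested genes.

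The 9 neighbours, Mmp12, Mmp1b, Mmp3, Mmp1a, Mmp10, Mmp8, Mmp27, Mmp20 and Mmp7, all had means at or below the guide. Their changes ran from -0.06 to 0.11. Mmp12, the macrophage elastase, was 6.18 ± 0.03 in WT and 6.12 ± 0.11 in KO188 (change -0.06, adjusted p = 0.52), and it passed without KO188 replicate 2 (-0.12, adjusted p = 0.048). Mmp3, stromelysin-1, stood at 5.91, 5.96 and 6.21 in WT and at 6.24, 6.19 and 5.98 in KO188, so the groups overlapped (change 0.11, SE 0.099, adjusted p = 0.49). Mmp10, stromelysin-2, was 6.36 ± 0.09 in WT and 6.40 ± 0.01 in KO188. Mmp8, the neutrophil collagenase, was 4.55 ± 0.09 in both groups. Mmp1a and Mmp1b, the rodent relatives of interstitial collagenase, had means of 4.39 and 4.70 in WT and of 4.33 and 4.73 in KO188.

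**Figure D1:**
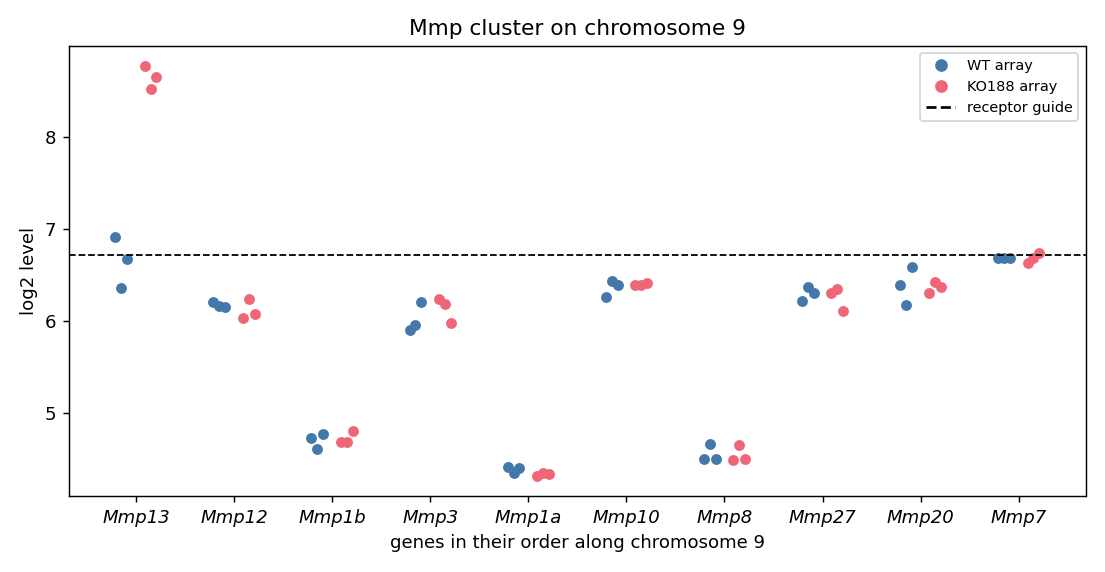
Log2 level of the 10 Mmp genes of the chromosome 9 cluster on each of 6 arrays, in their order along the chromosome; blue points are WT arrays, red points KO188 arrays, and the dashed line is the receptor guide of 6.72. Only Mmp13 separates the groups, with KO188 arrays between 8.52 and 8.77; the other genes stay near or under the guide.

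Over all 44 members, 10 were higher and 4 lower in KO188, and 30 were not called. The share called, 31.8%, lay near the 29.8% of all tested genes. The 10 higher members made up 22.7%, beside 13.3% of all genes, and the 4 lower ones 9.09%, beside 16.5%. Counts given below for smaller groups of genes should be read beside these shares of all genes. This split depends on the scaling: 9 were higher and 7 lower with each array centred on its median, and 8 were higher and 8 lower after quantile normalization. Over all genes, the higher share of calls was 44.5% on the deposited values and 30.8% with median centring. The lower calls were 2 in place of 4 without WT replicate 1, WT replicate 3 or KO188 replicate 3. The median change of the members was 0.00, and that of all genes -0.01. In 19 members the groups did not overlap (43.2%, beside 41.5% of all genes). A change of at least 0.2 with a call was seen in 8 members (18.2%, beside 18.3%). All 14 calls fell among the 29 members above the receptor guide (48.3%, beside 41.1% of all genes above it). None of the 15 at or below it was called by limma, where 3.90% of all such genes were; 1 of the 15, Timp4, had an unadjusted p under 0.05 with no overlap between the groups, and Adamts20 had 1 with overlap. In these cultures fewer cells of a type and less RNA per cell cannot be told apart.

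**Figure D2:**
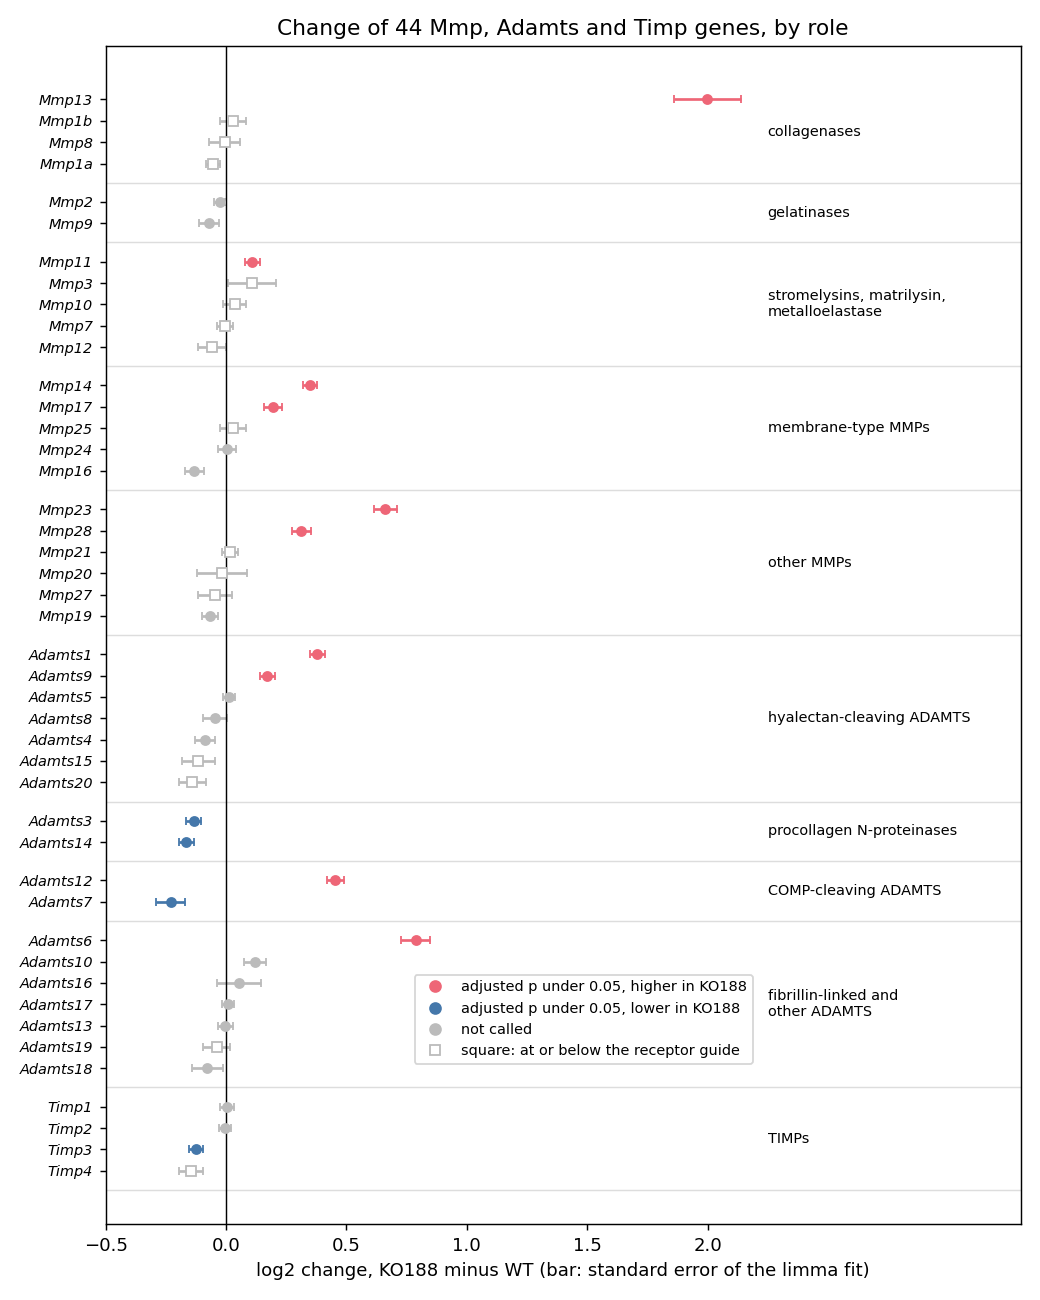
Log2 change (KO188 minus WT, with the standard error of the limma fit) of the 44 genes, grouped by role; red and blue mark calls, grey marks genes not called, and open squares mark genes at or below the receptor guide. Mmp13 stands at 2.0, and the other changes lie between -0.23 and 0.79.

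Of the membrane-type MMPs, which act at the cell surface, 2 of 5 rose and none was called lower by limma on the deposited values (1 of 5, Mmp16, at an unadjusted p under 0.05). Mmp14, or MT1-MMP, cuts pericellular collagen and activates the precursor of Mmp2. It stood at 11.45, 11.44 and 11.51 in WT and at 11.83, 11.80 and 11.81 in KO188 (probe set 10415052). The groups did not overlap and each was tight, and the change was 0.35 (SE 0.029, limma adjusted p = 0.00024), 1.27-fold. Mmp17, a membrane-type enzyme held by a lipid anchor, rose from 7.88 ± 0.03 to 8.07 ± 0.06 (change 0.19, adjusted p = 0.010), and this call ended with quantile normalization (0.13, adjusted p = 0.067). Mmp16 was 10.02 ± 0.01 in WT and 9.89 ± 0.08 in KO188 (change -0.13, adjusted p = 0.056). It passed in 5 of the alternatives, among them median centring (-0.18, adjusted p = 0.014) and quantile normalization (-0.13, adjusted p = 0.032). Mmp24 (change 0.00) and Mmp25 (0.03) were not called.

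Gelatinases, which digest denatured collagen, gave no call on the deposited values. Mmp2, the gelatinase that Mmp14 activates, stood at 13.03, 13.03 and 13.04 in WT and at 13.00, 13.01 and 13.01 in KO188. The KO188 arrays lay just under the WT arrays, and the change was -0.03 (95% interval -0.08 to 0.03, adjusted p = 0.45). Mmp9, a gelatinase of osteoclasts and granulocytes, was 7.36, 7.36 and 7.37 in WT and 7.31, 7.36 and 7.21 in KO188. Its change of -0.07 (adjusted p = 0.26) passed in 1 alternative, quantile normalization (-0.12, adjusted p = 0.047).

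Mmp23 and Mmp28 rose among the MMPs outside the classical groups. Mmp23, an enzyme without the usual hemopexin domain, stood at 8.52, 8.32 and 8.42 in WT and at 9.09, 9.08 and 9.08 in KO188 (probe set 10519140). The KO188 arrays were nearly identical, and all lay above the more widely spread WT arrays. The change was 0.66 (SE 0.049, limma adjusted p = 0.00014), 1.58-fold. Mmp28, epilysin, stood at 8.90, 8.88 and 8.97 in WT and at 9.28, 9.24 and 9.17 in KO188, again with no overlap (probe set 10389177; change 0.31, SE 0.040, adjusted p = 0.0015). Mmp11, stromelysin-3, is a product of stromal cells that is activated inside the cell by furin. It rose from 9.40 ± 0.04 to 9.51 ± 0.02 (change 0.11, adjusted p = 0.044). The Mmp11 call was lost in 8 of 15 alternatives, its adjusted p lying between 0.012 and 0.19. Mmp19 (change -0.07, adjusted p = 0.20) and Mmp21 (0.02) were not called.

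The hyalectan-cleaving ADAMTS cut aggrecan, versican and their relatives, and 2 of 7 rose. Adamts1 stood at 10.51, 10.44 and 10.47 in WT and at 10.88, 10.82 and 10.85 in KO188 (probe set 10440522). The groups did not overlap, and the change was 0.38 (SE 0.031, limma adjusted p = 0.00022), 1.30-fold. Adamts9 rose from 9.05 ± 0.03 to 9.22 ± 0.03 (change 0.17, adjusted p = 0.0062). Adamts5, the main aggrecanase of mouse cartilage, stood at 11.12, 11.09 and 11.14 in WT and at 11.14, 11.12 and 11.13 in KO188, with a change of 0.01 (95% interval -0.05 to 0.07). The groups overlapped almost fully.

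Adamts4, another aggrecanase, was 8.86, 8.73 and 8.86 in WT and 8.73 on all 3 KO188 arrays (change -0.09, adjusted p = 0.18). Tied values of this kind occurred in 11 members and in 26.5% of all tested genes. Adamts4 passed with quantile normalization (-0.14, adjusted p = 0.036) and without WT replicate 2 (-0.13, adjusted p = 0.019). Adamts8 (-0.05), Adamts15 (-0.11) and Adamts20 (-0.14) were not called on the deposited values. Adamts20 did pass with median centring (-0.19, adjusted p = 0.021), with quantile normalization (-0.16, adjusted p = 0.030) and without KO188 replicate 2 (-0.20, adjusted p = 0.0067).

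Both measured procollagen N-proteinases, which remove the amino-terminal propeptide of fibrillar procollagens, fell. Adamts14 went from 8.70 ± 0.03 to 8.53 ± 0.04 (fell by 0.17 on the log2 scale, adjusted p = 0.0084). Adamts3 went from 9.56 ± 0.04 to 9.43 ± 0.02 (fell by 0.14, adjusted p = 0.015), a call lost without WT replicate 1 (-0.12, adjusted p = 0.051).

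Adamts3, Adamts9 and Adamts17 each had several probe sets naming them alone, which read different stretches of 1 transcript and are not replicates. Of 16 Adamts3 probe sets, 15 had a change below 0 and 1 a change above 0. Among all probe sets, 7 of the 16 were called lower and 0 higher by limma (0 higher at an unadjusted p under 0.05 too). Their changes ran from -0.38 to 0.02 with a median of -0.14. All 6 Adamts9 probe sets were called higher, with changes from 0.17 to 0.37, and the brightest, which stands for the gene here, had the smallest change. None of the 5 Adamts17 probe sets was called by limma (0 of 5 at an unadjusted p under 0.05), and their changes ran from -0.08 to 0.04.

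**Figure D3:**
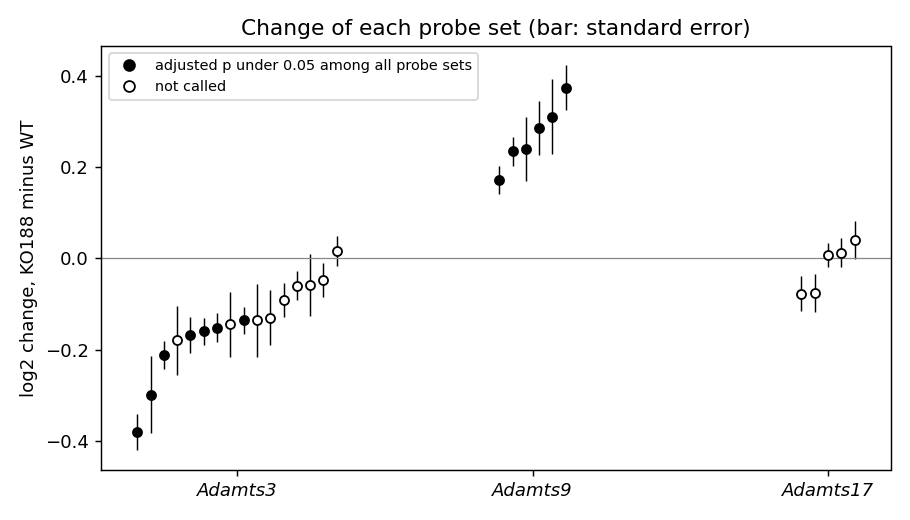
Log2 change of each probe set of Adamts3, Adamts9 and Adamts17 (bar, standard error), ordered by size within a gene; filled points passed limma's test among all probe sets. Adamts3 lies mostly below 0, Adamts9 lies above 0 throughout, and Adamts17 lies around 0.

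The 2 ADAMTS known to cut cartilage oligomeric matrix protein moved in opposite directions. Adamts12 stood at 8.57, 8.54 and 8.62 in WT and at 9.08, 9.03 and 8.99 in KO188 (probe set 10423109), a rise of 0.45 (SE 0.035, limma adjusted p = 0.00017) with no overlap. Adamts7 stood at 9.10, 9.24 and 9.21 in WT and at 8.88, 9.06 and 8.91 in KO188 (probe set 10587748). The highest KO188 array lay just under the lowest WT array, and Adamts7 fell by 0.23 (SE 0.059, adjusted p = 0.027). The Adamts7 call was lost when WT replicate 2, WT replicate 3, KO188 replicate 1 or KO188 replicate 3 was left out (adjusted p = 0.089 to 0.098). Comp, the gene of their shared substrate, was not called (change 0.10, adjusted p = 0.20).

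Adamts6, one of the ADAMTS linked to fibrillin microfibrils, had the largest change of its family. It stood at 8.79, 8.82 and 8.88 in WT and at 9.64, 9.72 and 9.49 in KO188 (probe set 10406982), with no overlap. The change was 0.79 (SE 0.061, limma adjusted p = 0.00016), 1.73-fold. Its close relative Adamts10 was 8.94 ± 0.06 in WT and 9.06 ± 0.06 in KO188 (change 0.12, adjusted p = 0.099). Adamts10 passed with the dim genes left out (adjusted p = 0.032) and without KO188 replicate 2 (0.16, adjusted p = 0.049). Adamts13, the enzyme that trims von Willebrand factor, and Adamts16, Adamts17, Adamts18 and Adamts19 were not called, with changes from -0.08 to 0.05.

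**Figure D4:**
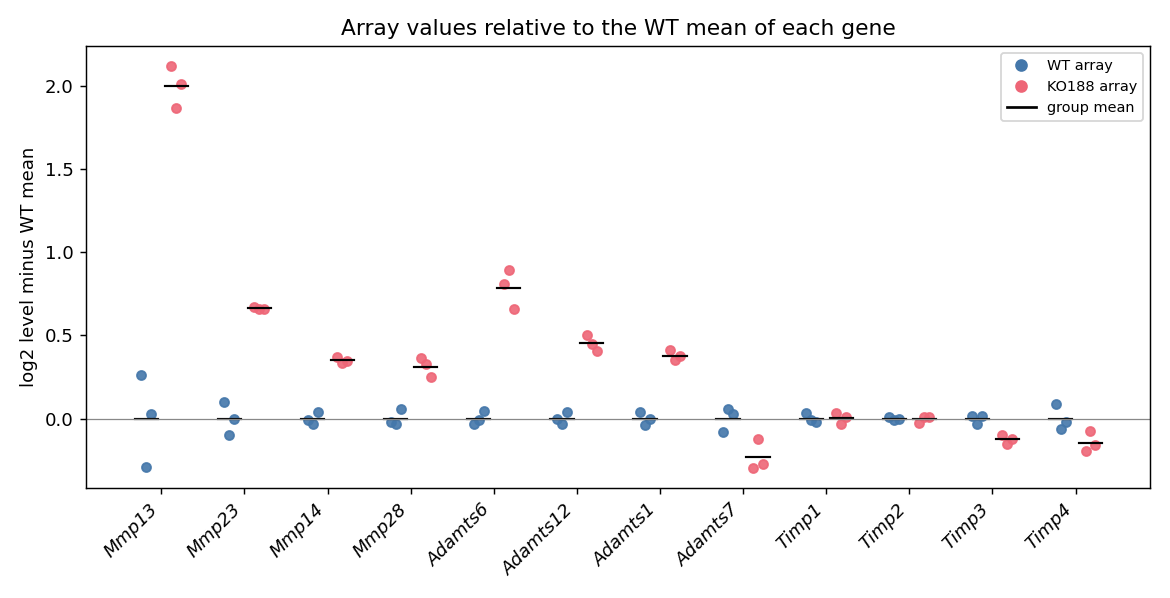
Log2 level on each array minus the WT mean of the same gene, for the 8 called members with a change of at least 0.2 and for the 4 Timp genes; blue points are WT arrays, red points KO188 arrays, and black lines group means. The groups are apart for the 8 called members, and they overlap for Timp1 and Timp2.

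Among the inhibitors, 1 of 4 fell and 0 rose (0 rose at an unadjusted p under 0.05 by limma). Timp1, a soluble inhibitor of most secreted MMPs, stood at 13.18, 13.14 and 13.13 in WT and at 13.18, 13.12 and 13.15 in KO188. Timp2, which also takes part in the activation of Mmp2 by Mmp14, stood at 12.59, 12.57 and 12.58 in WT and at 12.55, 12.59 and 12.59 in KO188. The groups overlapped for both, with changes of 0.00 (95% interval -0.07 to 0.07 for Timp1 and -0.06 to 0.06 for Timp2). Timp3 binds to the matrix and also blocks ADAMTS aggrecanases and the sheddase Adam17. It stood at 12.89, 12.83 and 12.89 in WT and at 12.77, 12.71 and 12.75 in KO188, with every KO188 array below every WT array (fell by 0.12, SE 0.029, adjusted p = 0.019). The Timp3 call was lost with quantile normalization (-0.06, adjusted p = 0.13), and when WT replicate 1, WT replicate 3, KO188 replicate 2 or KO188 replicate 3 was left out (adjusted p = 0.053 to 0.070). Timp4 stood at 5.67, 5.52 and 5.56 in WT and at 5.39, 5.51 and 5.42 in KO188, all under the receptor guide. The highest KO188 array lay just under the lowest WT array. Its change of -0.14 (adjusted p = 0.077) passed with median centring (-0.19, adjusted p = 0.018) and quantile normalization (-0.17, adjusted p = 0.027).

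Markers of other cells that make these enzymes were read beside them. Of 10 granulocyte markers 0 were called by limma (0 at an unadjusted p under 0.05), 7 lay at or below the guide, among them S100a8, S100a9 and Ngp, and their summed linear level was 762 to 793 in WT and 779 to 806 in KO188. Of 10 macrophage markers 0 were called by limma (3 at an unadjusted p under 0.05, Cd14, Itgam and Cd68), 6 lay at or below the guide, Csf1r, Adgre1 and Ptprc among them, and their sum was 1225 to 1248 in WT and 1192 to 1270 in KO188. Of 8 osteoclast markers Ctsk alone rose (0.88), with a sum of 1720 to 1778 in WT and 1958 to 2082 in KO188. Without Ctsk the sum was 1420 to 1452 in WT and 1382 to 1466 in KO188. Of the 8, 2 lay at or below the guide, Dcstamp and Calcr, and 6 lay above it, Ocstamp, Acp5, Oscar, Nfatc1, Itgb3 and Ctsk, with Acp5 (6.75) and Oscar (6.73) just above. Of 7 endothelial markers 1 was called, Kdr, under the guide (0.24), with a sum of 679 to 696 in WT and 682 to 699 in KO188.

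Beside Mmp13, which marks osteoblasts and hypertrophic chondrocytes, 5 of 8 osteoblast markers rose (Alpl, Dlx5, Col1a1, Col1a2 and Sp7) and 1 fell (Phex). Sp7 and Phex lay at or below the guide. The summed level of the 8 was 15803 to 16308 in WT and 20179 to 20535 in KO188. Most of this sum came from Col1a1 and Col1a2, with log2 means of 12.90 and 12.79 in WT. Without Alpl the sum was 15159 to 15638 in WT and 17323 to 17728 in KO188. Of 6 cartilage markers Sox9 alone rose (0.52), with a sum of 2269 to 2378 in WT and 2927 to 2977 in KO188. Without Sox9 the sum was 973 to 1048 in WT and 976 to 1133 in KO188, so the groups overlapped. Col10a1, which defines hypertrophic chondrocytes, was 7.27 in WT and 7.57 in KO188 (change 0.30, adjusted p = 0.12). Of 7 adipocyte markers 2 fell, Pparg (-1.86) and Fabp4 (-0.33), with a sum of 1758 to 1808 in WT and 1101 to 1185 in KO188. Without Pparg the sum was 928 to 946 in WT and 872 to 931 in KO188. Cebpa (0.07), Adipoq (-0.01), Plin1 (-0.01) and Cidec (0.00) were not called. Lep, under the guide, was not called either, although its KO188 arrays all lay above its WT arrays (0.19, adjusted p = 0.12). Of 9 stromal markers 5 rose and 1 fell, Nt5e, with a sum of 20519 to 21021 in WT and 24014 to 24271 in KO188. Without Pdgfra the sum was 19558 to 20035 in WT and 22216 to 22492 in KO188. Lepr, Eng and Thy1 were not called. The part of these differences in the results for the members was not tested.

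Other genes of the same pathways were read from 9 lists with 77 genes, of which 73 were measured. Of the 73, 9 rose, 20 fell and 44 were not called (39.7% called, beside 29.8% of all genes). Of the 63 above the receptor guide 28 were called (44.4%, beside 41.1% of all genes above it). The sheddases of the ADAM family, membrane proteinases that release receptors and growth factors, mostly fell where called: 6 of 12 fell and 1 rose. Adam12 fell by 0.79 (limma adjusted p = 6.8e-06), Adam19 fell by 0.54 and Adam10, which starts Notch cleavage, fell by 0.27. Adam23, which has no active zinc site, was the one that rose (0.25), a call lost without WT replicate 2 or 3 or without KO188 replicate 1 or 2. Among ADAMTS-like proteins, which lack the proteinase domain, 2 of 7 rose, Adamtsl4 (0.47) and Adamtsl5 (0.21), and 0 fell on the deposited values. With median centring or quantile normalization, 2 of the 7 rose and 2 fell.

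Of 12 AP-1 and Ets transcription factor genes, whose products are known to bind MMP promoters, 7 fell and 2 rose. The Ets family genes Elk3 and Etv4 fell by 0.28 and 0.40, and the AP-1 gene Fosl1 fell by 0.27 (adjusted p = 0.0015). Jun (0.13, adjusted p = 0.035) and Fos (0.14, adjusted p = 0.041) rose. With median centring, with the replicate number as a block, or with WT replicate 2, WT replicate 3, KO188 replicate 1 or KO188 replicate 3 left out, neither was called, while 7 of the 12 still fell in each of these fits. Without WT replicate 1, 1 of the 12 rose and 7 fell. On the deposited values Fosl2 (0.10, adjusted p = 0.094, no overlap between the groups), Junb and Fosb were not called.

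Of 4 convertase genes, whose products activate MMP precursors, 1 rose, Pcsk7 (0.18), and Furin was not called (-0.07, adjusted p = 0.10). With median centring, a variance trend or the dim filter, 1 convertase gene rose and 1 fell. In the plasminogen system 1 of 6 fell, the urokinase receptor gene Plaur (-0.24), while Plau (-0.11, adjusted p = 0.056) and Plat (0.08, adjusted p = 0.11) were not called. With median centring, quantile normalization or a variance trend, or without KO188 replicate 2, 2 of these 6 fell, and without WT replicate 1 or WT replicate 3, 1 rose and 1 fell. Of 7 astacin proteinases and their enhancers 2 fell, Pcolce2 (-0.61), an enhancer of procollagen C-proteinase, and Bmp1 (-0.13), that proteinase itself. With quantile normalization or the replicate block, 1 of these 7 fell. Of 8 further inhibitors and clearance genes 0 were called by limma (0 at an unadjusted p under 0.05), among them Reck (-0.03), a membrane-bound MMP inhibitor, and the clearance receptor gene Lrp1 (0.01). With quantile normalization, 1 of these 8 fell.

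Of 8 genes that induce or dock MMPs at the cell surface 3 rose and 2 fell: Itgav (-0.54) and Cd44 (-0.33) fell, and Cldn1 rose by 0.35 at a level under the receptor guide. Ddr1 (0.26), a collagen receptor kinase, and Thbs1 (0.14) also rose. With median centring or a variance trend, 3 of these 8 rose and 3 fell. Of 9 ADAMTS substrate genes 2 fell, the proteoglycan genes Dcn (-1.22) and Cspg4 (-0.44). Vcan, which encodes the versican that Adamts1 and Adamts9 cut, was 12.66 in WT and 12.65 in KO188 and was not called.

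**Figure D5:**
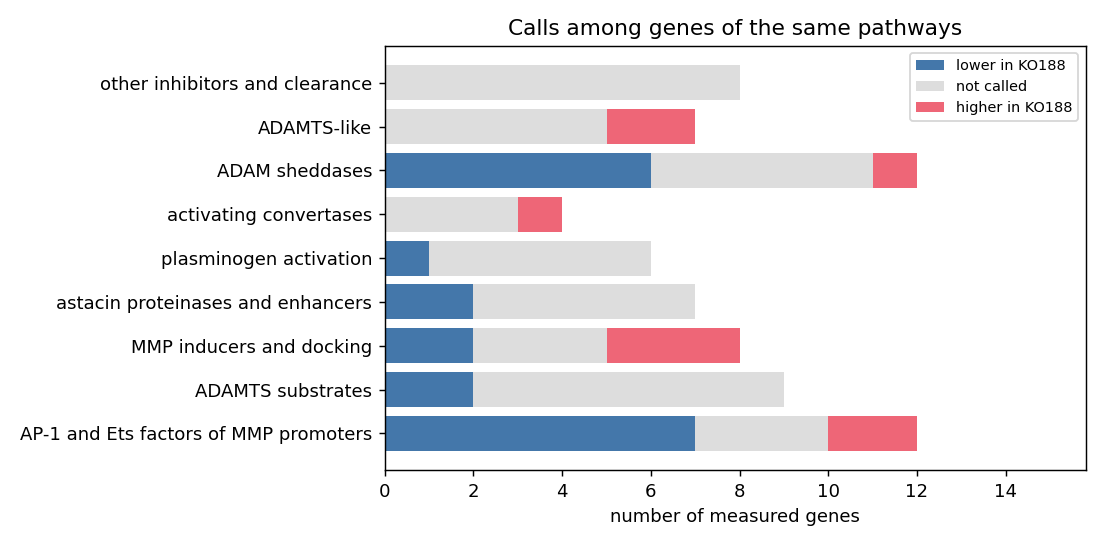
Number of measured genes in each of 9 pathway lists that were lower (blue), not called (grey) or higher (red) in KO188 by limma at an adjusted p under 0.05. The ADAM sheddases and the AP-1 and Ets factors hold the most lower calls, 6 of 12 and 7 of 12.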

How the data were processed

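The authors' deposited values are log2 levels of 35556 probe sets on 6 arrays. RMA, Affymetrix Expression Console and Partek are named, without versions or order, per the submitters' processing notes. RMA corrects background, equalises arrays and compresses dim values, so changes in dim genes are understated. Depth does not apply to arrays; the 3 arrays per group limit the precision.

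Probe sets were named through GEO's platform annotation. Of the 21789 with 1 symbol, 21698 matched RefSeq (GRCm38.p6) by Entrez identifier, with 0 symbols differing. The 1621 that name several genes were left out, and 0 of them named a member. For a gene with several probe sets the one with the highest 6-array mean was used, with no filter on dim values. With genes under the 50th percentile left out, 22 of 44 members stayed. The files' genome build was not stated, and printed coordinates are those of RefSeq.

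Groups came from the sample titles. The fit used limma 3.58.1 in R 4.3.3 (lmFit, eBayes without trend), checked on simulated data. Alternatives were median centring, quantile normalization, a variance trend, robust eBayes, the dim filter, the mean of probe sets, all probe sets on their own, a replicate block and each array left out; leaving out genes with tied values was chosen after seeing the data. Same-numbered samples did not deviate together (r from -0.03 to 0.02), so the numbers were not taken as pairs. Array values are given for called members with a change of at least 0.2 and for all Timp genes, and up to 3 genes with the lowest p are named per pathway list; Mmp2, Mmp9, Mmp3, Adamts4, Adamts5, Mmp12, the uncalled pathway genes, Adam23, Jun, Fos, Thbs1, Ddr1 and the markers above the receptor guide were named after their values were seen. Marker sums without the gene of lowest p were added after seeing the data. The members, lists and receptor guide were chosen with earlier results of these data known. Python 3.11.15 with matplotlib 3.10.9 drew the figures.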

Additional observations from a re-analysis of the deposited data

How the results depend on the processing

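The count of called members ran from 11 to 16 over 15 alternatives, beside 14 on the deposited values, and the count of all called genes from 4835 to 6512, beside 5937, and 6603 probe sets were called when each was tested singly. Leaving out 1 array gave 11 to 15 members and 4835 to 5553 genes. The replicate block gave 13 members, losing Mmp11 (adjusted p = 0.10), and 5019 genes, and it changed no other call among the members. Adamts1, Adamts6, Adamts9, Adamts12, Adamts14, Mmp14, Mmp23 and Mmp28 passed in all 15 alternatives. Mmp13 passed in all 14 that tested it, with changes from 1.85 to 2.13; the dim filter left it out. Timp1 and Timp2, with changes near 0, turned direction without a call. Timp1 was -0.041 with median centring and -0.012 to 0.020 with 1 array left out, and Timp2 was 0.056 with quantile normalization and -0.010 to 0.010 with 1 array left out. The cause of these shifts was not tested. Median centring moved the median of all genes by -0.04. Signal near background limits the 15 members at or below the receptor guide.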
